A study of Rattus norvegicus with 6 samples.

Results

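The genes described here make up the glutathione, thioredoxin and peroxide defence of peripancreatic fat. They were chosen by symbol: glutathione peroxidases (Gpx), glutathione transferases (Gst and Mgst), peroxiredoxins (Prdx), thioredoxins and their reductases (Txn, Txnrd), superoxide dismutases (Sod), and Cat, Gclc, Gclm, Gss, Gsr, Nqo1, Hmox1 and Srxn1. Probe sets annotated with exactly 1 such symbol numbered 55 of 31099 on the array, and they stood for 49 of 14217 genes. Visceral adipose tissue beside the pancreas was taken from 3 lean Wistar rats (rats 14, 18 and 19) fed standard chow and from 3 obese Wistar rats (rats 29, 32 and 42) fed a cafeteria diet of high caloric content over 30 days. The labels state no allele, drug treatment, age or sex for any rat, and Wistar rats are outbred. Each rat gave 1 Affymetrix array, and the p-values below therefore rest on the spread among 3 rats a group.

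Glutathione is a small thiol that peroxidases use to reduce hydrogen peroxide and lipid peroxides and that transferases attach to reactive aldehydes and other electrophiles. Peroxiredoxins reduce peroxides with electrons passed on by thioredoxin, and glutathione and thioredoxin are each restored by a reductase that draws on NADPH. Superoxide dismutases make hydrogen peroxide from superoxide and catalase breaks it down, and many of these genes are known targets of the transcription factor Nrf2. Several of the peroxidases and all thioredoxin reductases contain selenocysteine. In fat, these enzymes meet peroxides from mitochondria, from peroxisomes and from immune cells, and aldehydes formed from stored lipid.

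Array medians lay between 5.63 and 5.68 on the log2 scale. The defining adipocyte genes Adipoq (12.42 to 12.83) and Fabp4 (13.01 to 13.45) were bright on every array. The array of lean 14 stood apart by its pancreatic acinar transcripts, where 13 measured acinar markers averaged 8.78 against 4.46 to 4.97 on the other arrays. The array of obese 42 stood highest in the excess of 3' over 5' signal in RNA quality control transcripts, 1.28 against 0.79 to 1.10 in log2. It is also the 1 array whose label does not call it a renewed analysis. Of 12 macrophage markers 12 had a lower mean in the obese group, and their mean level was 9.87 to 10.30 in lean rats and 8.97 to 9.97 in obese rats. Of 11 adipocyte markers 10 had a higher mean there, with levels of 11.11 to 11.31 against 11.50 to 11.80. In whole tissue, fewer cells of a type and less RNA per cell cannot be told apart.

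Setting the obese against the lean rats asks which defence genes this depot expresses differently on the cafeteria diet. Glutathione peroxidase 3, thioredoxin reductase 3 and the quinone reductase Nqo1 lay about 1.4 to 1.5-fold higher on the obese arrays, and the microsomal transferase Mgst2 and the alpha-class transferase Gsta1 lay lower, but 0 of the 49 members passed limma's test at an adjusted p under 0.05. Over all genes 0.00703% were called. An unadjusted p under 0.05 was found for 8 members, a share of 16.3% against 13.4% of all genes. Of these, 6 were higher and 2 lower, where 7.23% and 6.18% of all genes were. With Benjamini-Hochberg adjustment over all genes, the smallest value among the members was 0.141.

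For 9 of the 49 members the values of the lean and the obese rats did not overlap, a share of 18.4% against 20.4% of all genes. Gpx3, Gpx4, Txnrd3, Nqo1, Srxn1 and Gsto1 were the 6 higher ones (12.2% of the members and 12.2% of all genes), and Gsta1, Gstp1 and Mgst2 the 3 lower ones (6.12% against 8.18%). Both shares of the members lay near or below those of all genes. Their median difference, obese minus lean, was -0.0027 on the log2 scale, beside 0.016 over all genes, with 24 members above 0 and 25 below. The count without overlap depended on single rats, and smaller groups overlap less by construction. It was 17 without lean 14 (27.2% of all genes), 11 without lean 18 (28.9%) and 12 without lean 19 (32.5%). It was 15 without obese 29 (32.7%), 15 without obese 32 (30.1%) and 19 without obese 42 (35.5%). With lean 14 and obese 42 both left out it was 27, 18 higher and 9 lower, beside 46.0% of all genes (24.9% higher and 21.1% lower).

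**Figure D1:**
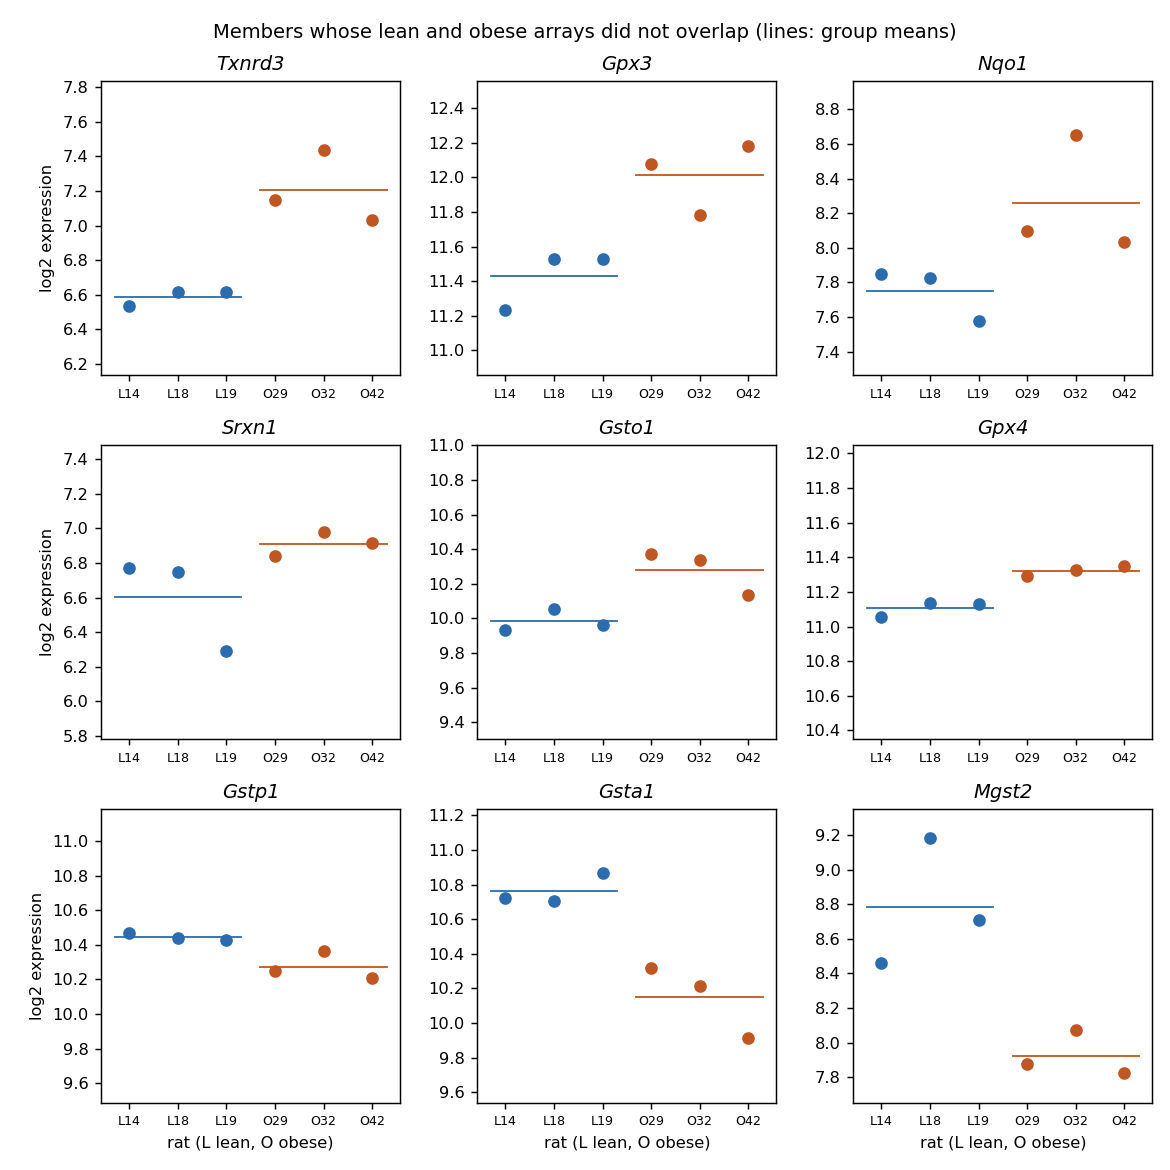
Level of the 9 members whose groups did not overlap, in log2 expression, for each of the 6 rats (L lean, O obese); each point is 1 array, lines are group means, and all panels span the same log2 range. Gpx3, Txnrd3, Nqo1, Srxn1, Gsto1 and Gpx4 lie higher on every obese array, and Gstp1, Gsta1 and Mgst2 lower.

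Because antioxidant genes are often discussed through a shared promoter element, the bases just upstream of 4 of these genes are shown, 3 that were higher (Gpx3, Nqo1 and Txnrd3) and 1 that was lower (Gstp1) on the obese arrays. Each stretch holds the 250 bases before the start of transcription, 5′ to 3′ on the gene's strand, from RefSeq in build GRCr8. Capitals mark the core of the antioxidant response element, searched as TGACNNNGC on both strands, and the GC box GGGCGG, which reads CCGCCC on the other strand.
Gpx3, chr10:39529085-39529334, plus strand: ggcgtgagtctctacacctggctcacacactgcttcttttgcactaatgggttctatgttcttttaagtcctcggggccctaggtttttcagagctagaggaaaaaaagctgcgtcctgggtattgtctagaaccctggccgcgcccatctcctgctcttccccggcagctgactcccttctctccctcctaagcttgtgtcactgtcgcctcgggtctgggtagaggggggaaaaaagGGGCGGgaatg
Nqo1, chr19:52220268-52220517, minus strand: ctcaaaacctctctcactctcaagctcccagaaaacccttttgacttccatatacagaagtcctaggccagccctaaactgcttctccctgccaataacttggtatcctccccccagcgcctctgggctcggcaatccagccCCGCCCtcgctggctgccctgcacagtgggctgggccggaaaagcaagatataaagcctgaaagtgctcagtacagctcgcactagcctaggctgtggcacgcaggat
Txnrd3, chr4:123629518-123629767, plus strand: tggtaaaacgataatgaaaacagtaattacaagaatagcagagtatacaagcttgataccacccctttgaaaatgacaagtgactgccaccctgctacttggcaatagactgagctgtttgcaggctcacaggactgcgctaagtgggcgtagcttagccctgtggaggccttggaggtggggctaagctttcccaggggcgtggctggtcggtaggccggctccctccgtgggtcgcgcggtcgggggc
Gstp1, chr1:210769706-210769955, minus strand: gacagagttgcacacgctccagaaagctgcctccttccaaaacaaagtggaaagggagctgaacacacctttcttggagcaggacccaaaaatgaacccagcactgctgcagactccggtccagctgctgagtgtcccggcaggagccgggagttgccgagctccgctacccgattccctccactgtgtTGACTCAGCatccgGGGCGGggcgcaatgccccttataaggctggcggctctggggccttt
The element core occurred in the Gstp1 stretch, where it starts 61 bases before the start of transcription and also holds the AP-1 motif TGACTCA, and in none of the other 3. Gstp1, Gpx3 and Nqo1 held 1 GC box each and Txnrd3 held 0. Promoters were matched for 41 of the 49 members, and not for Gpx8, Gsr, Gstt1, Gstt2, Hmox1, Mgst2, Prdx6 and Sod3. The core was present in 9 of the 41 (22.0%) against 11.0% of all 27457 genes with such a window, in Gclm, Gpx2, Gsta3, Gstm5, Gstm7, Gstp1, Gstz1, Sod2 and Txnrd1. Of the 8 matched members without overlap between the diets 1 held it, the Gstp1 shown here. Gsta1, lower by more (-0.61 against -0.17 for Gstp1), was matched, held no core and is not shown. With 1 core among the 4 stretches, a link between the core and a direction was not tested. A GC box was present in 29 of the 41 (70.7%) against 33.5% of those 27457 genes. These genes were not limited to the array or matched to the members by level, and 43 of the 49 members lay above the median on every array. These are letter matches in 1 short window and not measured binding sites.

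Glutathione peroxidases reduce peroxides with glutathione. Among the 7 measured, Gpx3 and Gpx4 had groups that did not overlap, beside 20.4% of all genes, and the median difference of the family was 0.037. Gpx3, a secreted plasma enzyme that fat also makes, lay at 11.23, 11.53 and 11.53 on lean 14, 18 and 19 and at 12.08, 11.78 and 12.18 on obese 29, 32 and 42. Every obese value was above every lean one, and obese 42 was the highest. Its mean moved from 11.43 ± 0.17 (SD, n = 3) to 12.01 ± 0.21 (SD, n = 3), a difference of 0.58 (SE 0.14), with a limma adjusted p of 0.198. Leaving out any 1 rat kept the difference between 0.48 and 0.70.

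Gpx4, which reduces peroxides within membrane lipids and so restrains ferroptosis, lay at 11.05, 11.14 and 11.13 on the lean and at 11.29, 11.32 and 11.35 on the obese arrays. Both groups were tight and the gap between them exceeded their spread, with 11.11 ± 0.047 (SD, n = 3) against 11.32 ± 0.028 (SD, n = 3). The difference was 0.21 (SE 0.079, limma adjusted p = 0.330), or 1.16-fold. A dimmer second probe set of Gpx4, at 5.49 to 5.67, differed by -0.0085 (SE 0.090).
Gpx1, the abundant cytosolic peroxidase, lay at 12.14, 11.95 and 11.99 on the lean and at 12.02, 11.93 and 11.84 on the obese arrays. These groups overlapped, with a difference of -0.096 (95% confidence interval -0.32 to 0.13). Gpx7 and Gpx8, which act in the endoplasmic reticulum, differed by 0.24 and -0.034. Gpx2, an intestinal form, and Gpx6, an olfactory one, were dim, and Gpx6 was below the lower quartile of every array (4.41 to 4.49).

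Peroxiredoxins reduce hydrogen peroxide through a cysteine, and sulfiredoxin (Srxn1) revives that cysteine after overoxidation. Within this group of 6, Srxn1 was the 1 whose groups did not overlap, beside 20.4% of all genes, and the median difference was -0.071. Srxn1 lay at 6.77, 6.75 and 6.29 on the lean and at 6.84, 6.98 and 6.91 on the obese arrays. The gap was narrow, from 6.77 on lean 14 to 6.84 on obese 29, and lean 19 lay well below the other lean rats. The difference was 0.31 (SE 0.14, limma adjusted p = 0.400), and it was 0.15 without lean 19. Neither dimmer probe set of Srxn1 shared it, with differences of 0.049 (SE 0.098) and -0.098 (SE 0.13).

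Prdx3, the mitochondrial peroxiredoxin, lay at 9.98, 10.18 and 10.09 on the lean and at 10.05, 9.98 and 9.76 on the obese arrays, a difference of -0.15 (95% confidence interval -0.41 to 0.10). Prdx6, which also acts on phospholipid peroxides, lay at 9.91, 10.20 and 10.22 on the lean and at 10.24, 10.03 and 9.78 on the obese arrays, a difference of -0.098 (interval -0.43 to 0.24). For both the groups overlapped and obese 42 was the lowest array. Prdx2, Prdx4 and Prdx5 differed by -0.044, -0.15 and 0.17, and each was also lowest on obese 42. Without that rat they differed by 0.039, 0.14 and 0.33, so that Prdx2 and Prdx4 turned.

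Thioredoxin reductases return thioredoxin to its reduced form. Txnrd3, a reductase known best from testis that also carries a glutaredoxin domain, had the smallest p of all 49 members. It lay at 6.54, 6.61 and 6.61 on the lean and at 7.15, 7.43 and 7.03 on the obese arrays. The lean values were nearly equal and all obese values stood clear of them, with means of 6.59 ± 0.044 (SD, n = 3) and 7.20 ± 0.21 (SD, n = 3). The difference was 0.62 (SE 0.12), or 1.53-fold higher, with a limma adjusted p of 0.141. It ranged from 0.50 to 0.70 when any 1 rat was left out, and the adjusted p was 0.0967 without obese 42.

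The other reductases differed little by comparison. Txnrd1, the cytosolic reductase, lay at 8.85, 8.86 and 8.80 on the lean and at 8.88, 8.85 and 8.96 on the obese arrays, a difference of 0.060 (95% confidence interval -0.13 to 0.25), and its second probe set differed by -0.11 (SE 0.12). Txnrd2, the mitochondrial one, differed by 0.029 (interval -0.16 to 0.22). Cytosolic thioredoxin (Txn1) differed by -0.0027 (interval -0.22 to 0.22) and mitochondrial thioredoxin (Txn2) by 0.12.

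Superoxide dismutases and catalase showed no separation by diet, and all 4 groups overlapped. Sod1, in the cytosol, lay at 12.01, 12.08 and 12.04 on the lean and at 11.94, 12.02 and 11.83 on the obese arrays. Sod2, in mitochondria, lay at 9.20, 9.21 and 9.19 on the lean and at 9.19, 9.24 and 8.84 on the obese arrays, so that obese 42 alone was low. Sod3, which is secreted, lay at 10.83, 11.29 and 11.22 on the lean and at 11.18, 11.01 and 11.12 on the obese arrays. Their differences were -0.11, -0.11 and -0.0087, with 95% confidence intervals of -0.31 to 0.09, -0.39 to 0.18 and -0.32 to 0.31. Cat, the peroxisomal catalase, lay at 10.99, 11.35 and 11.48 on the lean and at 11.51, 11.62 and 11.32 on the obese arrays. Its difference was 0.21 (interval -0.13 to 0.56) and was 0.067 without lean 14, the lowest array for this gene and the one with acinar transcripts.

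Glutathione is made by glutamate-cysteine ligase (catalytic subunit Gclc, modifier subunit Gclm) and glutathione synthetase (Gss), and glutathione reductase (Gsr) recycles it. None of these 4 genes separated the diets. Gclc lay at 7.57, 7.60 and 7.35 on the lean and at 8.00, 7.25 and 7.80 on the obese arrays, so that obese 32 was the lowest and obese 29 the highest of all rats. Its difference was 0.18 (SE 0.19) on this probe set and 0.017 (SE 0.23) on the other.
Gclm lay at 7.16, 7.36 and 7.53 on the lean and at 7.74, 7.87 and 7.32 on the obese arrays, a difference of 0.30 (SE 0.16) that was 0.46 without obese 42. Gsr lay at 7.18, 7.19 and 6.74 on the lean and at 6.65, 7.34 and 6.25 on the obese arrays, a difference of -0.29 (SE 0.27). For Gsr the highest and the lowest of all 6 arrays were both obese rats, and the difference was -0.044 without obese 42. Gss differed by -0.11 (SE 0.12).

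**Figure D2:**
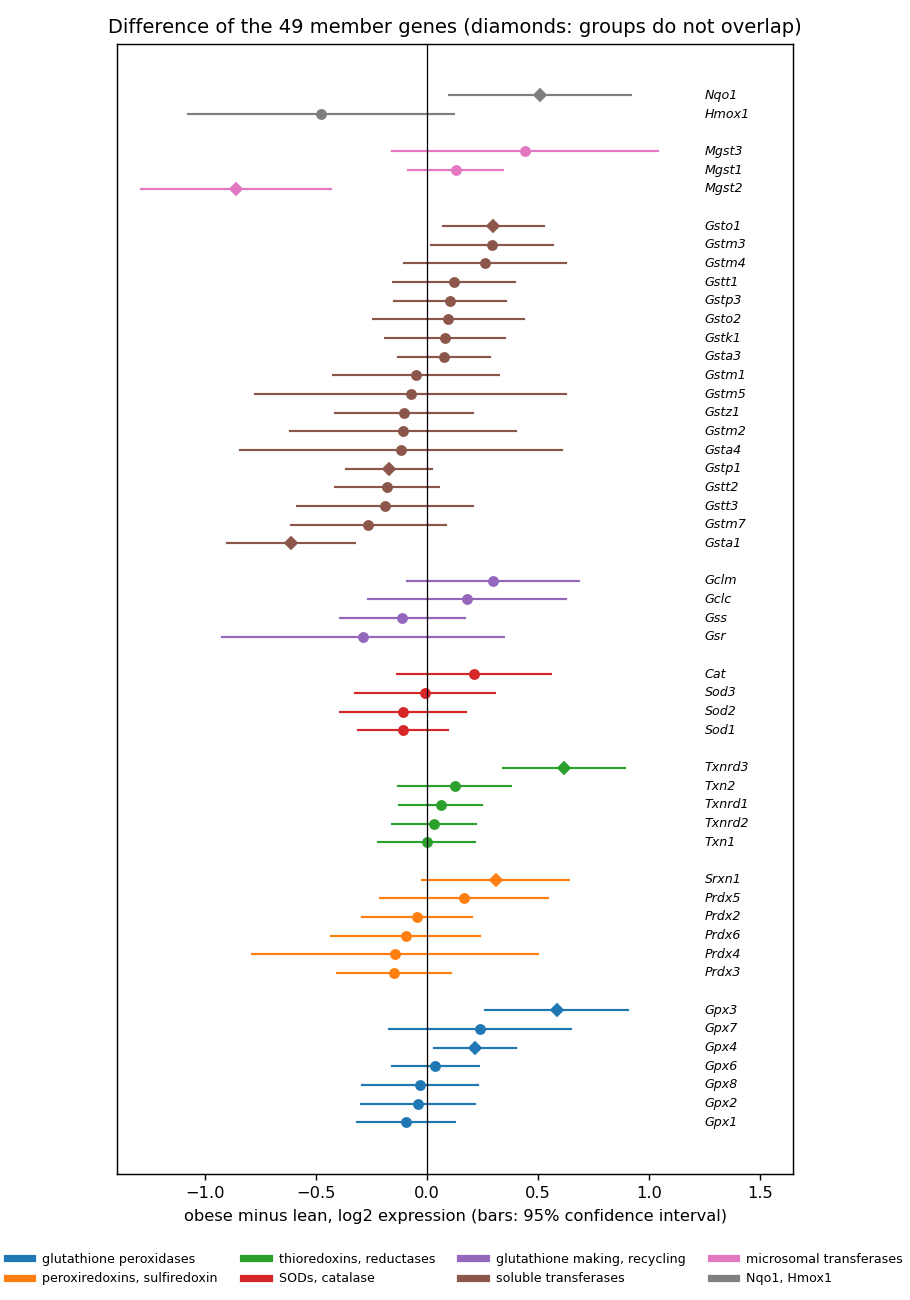
Difference between obese and lean rats (3 arrays each) for the 49 members, in log2 expression, ordered by role; points are differences, bars the 95% confidence interval of limma's fit before any adjustment, and diamonds mark members whose groups did not overlap. Txnrd3, Gpx3 and Nqo1 have the largest positive and Mgst2 and Gsta1 the largest negative differences, and the members of each larger family lie on both sides of 0.

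Soluble glutathione transferases attach glutathione to electrophiles. Of the 18 measured, Gsto1, Gsta1 and Gstp1 had groups that did not overlap, beside 20.4% of all genes. In all, 8 of the 18 were above 0 and 10 below, with a median difference of -0.063. Many of them have close relatives in the genome (alpha and mu classes above all), so that a probe set can take up signal from a related transcript and values of single members are uncertain.

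Gsta1, an alpha-class enzyme that also acts on lipid peroxides, lay at 10.72, 10.70 and 10.86 on the lean and at 10.32, 10.22 and 9.91 on the obese arrays. All obese values were below all lean ones and obese 42 was the lowest. The means were 10.76 ± 0.089 (SD, n = 3) and 10.15 ± 0.21 (SD, n = 3), a difference of -0.61 (SE 0.12) or 1.53-fold lower, with a limma adjusted p of 0.155. Without any 1 rat it lay between -0.70 and -0.50. Gsta4, which clears the lipid aldehyde 4-hydroxynonenal, lay at 8.22, 8.31 and 7.87 on the lean and at 8.16, 8.60 and 7.30 on the obese arrays. Both extremes of Gsta4 were obese rats, its difference was -0.12 (SE 0.31), and it turned to 0.24 without obese 42.

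Gstp1, the pi-class enzyme whose upstream bases are shown above, lay at 10.47, 10.44 and 10.43 on the lean and at 10.25, 10.36 and 10.21 on the obese arrays. The lean values were close together and the obese ones just below them, a difference of -0.17 (SE 0.083, limma adjusted p = 0.419). Gsto1, an omega-class enzyme that acts as a thiol reductase, lay at 9.93, 10.05 and 9.96 on the lean and at 10.37, 10.34 and 10.13 on the obese arrays. Its obese values were all higher, by 0.30 on average (SE 0.097, limma adjusted p = 0.299).
Gstm3, a mu-class enzyme, lay at 4.15, 4.02 and 4.28 on the lean and at 4.45, 4.60 and 4.27 on the obese arrays. Its groups overlapped by the values of lean 19 and obese 42, and all of these values are dim. The difference was 0.29 (SE 0.12, limma adjusted p = 0.359). The other mu-class genes differed by 0.26 (Gstm4), -0.052 (Gstm1), -0.11 (Gstm2), -0.075 (Gstm5) and -0.27 (Gstm7), and all had overlapping groups. Among the theta, kappa and zeta classes the differences ran from -0.19 (Gstt3) to 0.12 (Gstt1). Gsta3, below the lower quartile on every array, Gstp3 and Gsto2 differed by 0.076, 0.10 and 0.096.

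Microsomal transferases sit in membranes, and their 3 genes went separate ways. Mgst2, which can also join glutathione to leukotriene A4, had the largest difference of all members. It lay at 8.46, 9.18 and 8.71 on the lean and at 7.87, 8.07 and 7.82 on the obese arrays. All obese values were below all lean ones, and the lean rats were spread more widely. The means were 8.78 ± 0.37 (SD, n = 3) and 7.92 ± 0.13 (SD, n = 3), a difference of -0.86 (SE 0.18) or 1.82-fold lower, with a limma adjusted p of 0.179. The difference was -1.02 without lean 14 and -0.66 without lean 18, the highest array.

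Mgst1, a peroxidase and transferase of the endoplasmic reticulum and outer mitochondrial membrane, lay at 13.04, 13.19 and 13.22 on the lean and at 13.28, 13.35 and 13.20 on the obese arrays, a difference of 0.13 (95% confidence interval -0.09 to 0.34). Mgst3, a related enzyme singled out once its values were known, lay at 9.22, 9.97 and 9.61 on the lean and at 10.09, 10.45 and 9.58 on the obese arrays. Its groups overlapped through obese 42, and its difference of 0.44 (SE 0.26) was 0.67 without that rat and 0.25 without lean 14.

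Nqo1 and Hmox1 are the textbook inducible genes of the Nrf2 response, and they lay on opposite sides. Nqo1, which reduces quinones by a pair of electrons, lay at 7.85, 7.83 and 7.58 on the lean and at 8.09, 8.65 and 8.04 on the obese arrays. Every obese value was above the lean ones, and obese 32 was the highest. The means were 7.75 ± 0.15 (SD, n = 3) and 8.26 ± 0.34 (SD, n = 3), a difference of 0.51 (SE 0.18) or 1.42-fold, with a limma adjusted p of 0.315. Without obese 32 it was 0.31.

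Hmox1, which breaks down haem and is well known from iron-recycling macrophages, lay at 7.73, 7.82 and 7.50 on the lean and at 7.21, 7.74 and 6.65 on the obese arrays. Obese 32 lay within the lean range, obese 29 below it and obese 42 lowest. The difference was -0.48 (SE 0.26, limma adjusted p = 0.455), and -0.20 without obese 42. The macrophage markers were lowest on obese 42 as well, at a mean of 8.97 against 9.58 on obese 32 and 9.97 on obese 29, and their part in the Hmox1 values was not tested.

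Rat 42 recurred throughout the set. For 24 of 49 members (49.0%) the lowest of the 6 arrays was obese 42, whereas 20.3% of all genes and 25.4% of genes above the median level had their lowest value there. The median member on obese 42 lay at -0.17 from the mean of the other arrays, and the median gene at 0.016. Within the obese group, 34 members (69.4%) were lowest on obese 42, against 36.4% of all genes. Obese 32 and obese 29 were the highest array for 20 and 12 members.

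Leaving out an array that is low for many members raises the obese means by construction. Without obese 42 the median member difference was 0.097, beside 0.016 over all genes, and 35 of 49 members were above 0 (53.1% of all genes were). Groups did not overlap for 16 higher and 3 lower members, with 20.0% and 15.5% of all genes in those classes. Other single omissions gave 8 higher and 9 lower without lean 14 (15.8% and 11.5% of all genes), 7 and 8 without obese 29 (18.4% and 14.3%), and 8 and 7 without obese 32 (18.2% and 11.9%). They gave 8 and 3 without lean 18 (17.1% and 11.9%) and 9 and 3 without lean 19 (18.2% and 14.3%). Without obese 42, 0 members passed limma's test while 34 genes (0.239%) did. Txnrd3, Gclm, Mgst3 and Nqo1 then differed by 0.70, 0.46, 0.67 and 0.62, each larger than with all rats. Gpx3, Gpx4, Gsta1 and Mgst2 differed by 0.50, 0.20, -0.50 and -0.81, each smaller in size than with all rats. The same array had the highest 3' minus 5' difference and the lowest macrophage level. With that 3' excess entered as a covariate in limma's fit, 33 of 49 members were above 0 (52.9% of all genes), the median was 0.068, and 0 members were called. Gsr then lay at -0.031 and Hmox1 at -0.24, and Gsta4 turned to 0.20. Txnrd3 (0.67), Gpx3 (0.47), Nqo1 (0.64), Gsta1 (-0.56) and Mgst2 (-0.85) kept their directions. Obese 42 was the highest array for this covariate and lean 14, the array with acinar transcripts, the lowest. The fit therefore cannot tell the 3' excess apart from other features of these arrays. The part of the macrophage level in the member values was not tested.

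**Figure D3:**
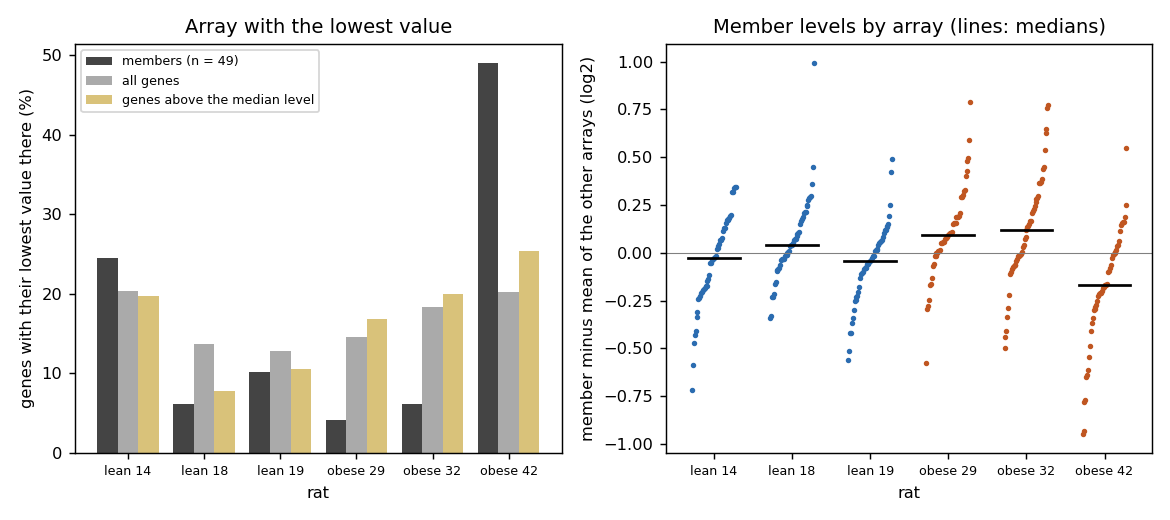
Left, percent of genes whose lowest log2 expression over the 6 arrays fell on each array, for the 49 members, all 14217 genes and the genes above the median level. Right, each member's level on an array minus its mean over the other arrays (log2), with the median as a line; obese 42 holds the lowest value of 49.0% of members and has a median of -0.17.

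The range of a member over the 6 arrays takes in any difference between the diets as well as variation between rats. Mgst2, Gsta4, Mgst3, Hmox1, Prdx4 and Gsr had the widest ranges, from 1.36 down to 1.09. Of these Mgst2 alone had groups that did not overlap. Just below, Nqo1 (1.07), Gsta1 (0.95), Gpx3 (0.95) and Txnrd3 (0.90) had groups that did not overlap, while Gstm5 (1.06) and Gstm2 (0.92) had groups that did. In Mgst2, Gsta4, Hmox1, Prdx4 and Gsr the lowest value came from obese 42. Prdx4, a peroxiredoxin of the secretory pathway that was likewise singled out from its values, lay at 9.88, 9.73 and 9.41 on the lean and at 10.09, 9.54 and 8.95 on the obese arrays. At the other end, Txnrd2, Txnrd1, Gpx6 and Txn1 ranged over only 0.12, 0.16, 0.17 and 0.21.

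**Figure D4:**
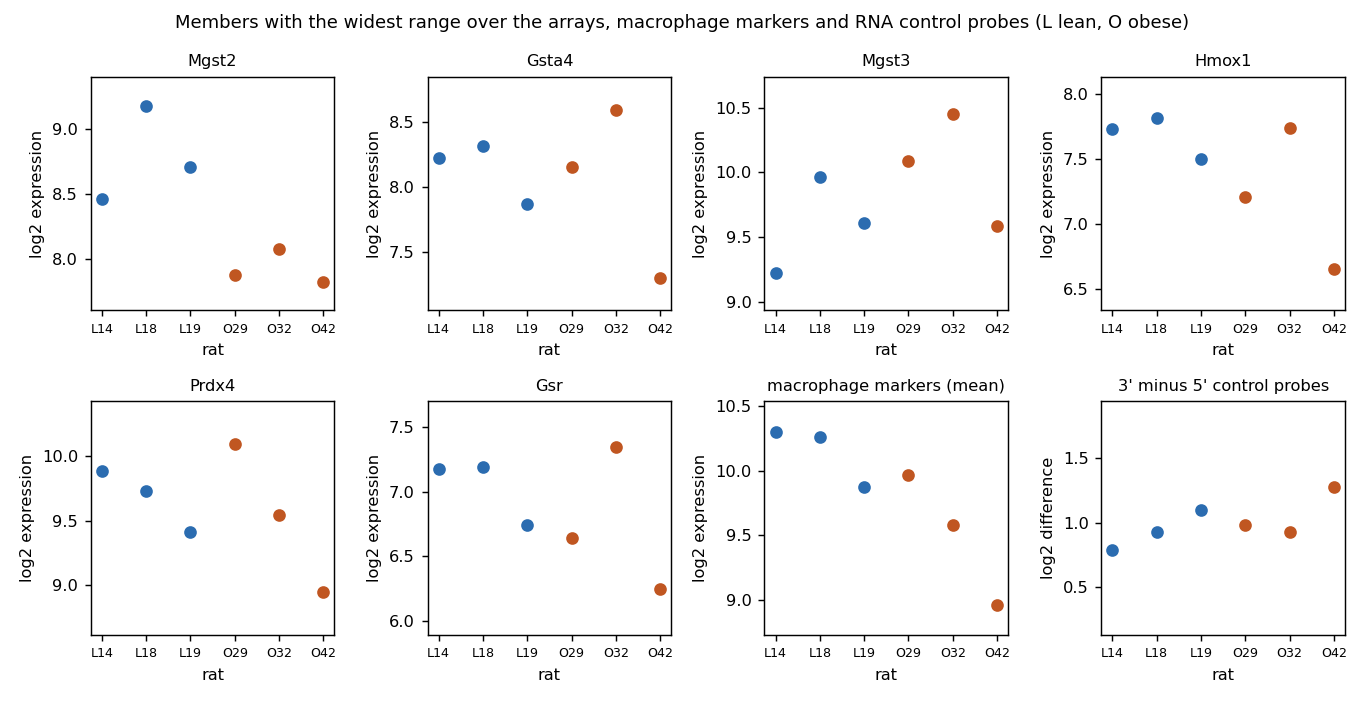
Level by rat (L lean, O obese; 1 array each) of the 6 members with the widest range, in log2 expression, beside the mean of 12 macrophage markers and the 3' minus 5' signal of control transcripts, all on axes of equal span. Obese 42 is the lowest array for Mgst2, Gsta4, Hmox1, Prdx4, Gsr and the macrophage markers and the highest for the 3' minus 5' difference.

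The surrounding pathway was read from 6 lists, and 103 of their 110 entries could be matched. No gene of these lists passed limma's test over all genes, and 7 higher and 10 lower genes had an unadjusted p under 0.05, a share of 16.5% against 13.4% of all genes. Groups did not overlap for 24, 12 in each direction, or 23.3% against 20.4% of all genes, so that both shares lay near the background. Glutathione supply and turnover was the list with the highest median, 0.12, with 13 of 18 genes above 0. Over all genes, 12.2% were higher and 8.18% lower without overlap, and 7.23% and 6.18% had an unadjusted p under 0.05. In this list groups did not overlap for 4 higher and 0 lower genes, and 3 higher and 0 lower genes had such a p. Among them were Anpep, the aminopeptidase N that splits peptides outside the cell (0.45, SE 0.10), Lap3, a leucine aminopeptidase (0.40, SE 0.13), and Slc1a1, a carrier of glutamate and cysteine (0.33, SE 0.11). Their limma adjusted p-values were 0.190, 0.294 and 0.315. Slc1a1 was dim, at 4.49 to 5.09.

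NADPH supply, from which both reductases draw, had the lowest median, -0.17, with 4 of 15 genes above 0. An unadjusted p under 0.05 was found for 3 lower and 0 higher genes, beside 6.18% and 7.23% of all genes. Groups did not overlap for 2 genes in each direction, beside 8.18% of all genes lower and 12.2% higher. The 2 higher ones, named after their values were seen, were Idh1 (0.21), a cytosolic source of NADPH, and Mthfd2 (0.070), a mitochondrial folate enzyme. Nnt, which makes NADPH in mitochondria, lay at 9.89, 9.71 and 9.75 on the lean and at 9.45, 9.12 and 9.07 on the obese arrays. All obese values were below the lean ones, by -0.57 on average (SE 0.12, limma adjusted p = 0.181). Me2, a mitochondrial malic enzyme, lay at -0.45 (SE 0.14) without overlap and Tkt, the transketolase of the pentose phosphate pathway, at -0.57 (SE 0.20) with overlap. The lowest array for Nnt, Me2 and Tkt was obese 42.

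Sources of oxidants held 20 matched genes with 8 above 0 and a median of -0.091. Maob, a monoamine oxidase that makes peroxide, lay at -0.998 (SE 0.13, limma adjusted p = 0.0956). Ncf4 and Rac2, phagocyte parts of the NADPH oxidase, lay at -0.53 (SE 0.14) and -0.82 (SE 0.23). All 3 had groups that did not overlap. An unadjusted p under 0.05 was found for 4 lower and 2 higher genes of this list, beside 6.18% and 7.23% of all genes. Groups did not overlap for 4 lower and 3 higher genes, beside 8.18% and 12.2% of all genes. The 3 higher ones, named after their values were seen, were Aoc3 (0.30), an amine oxidase of adipocytes, and the dimmer Nox1 (0.25) and Nos2 (0.25), which make superoxide and nitric oxide. The macrophage markers were lower beside Ncf4 and Rac2, and their part in the Ncf4 and Rac2 values was not tested.

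Regulators had a median of -0.040, with 7 of 14 above 0. Foxo3, a transcription factor that induces Sod2 and catalase, lay at -0.32 (SE 0.10) and Ppargc1b, a coactivator of mitochondrial genes, at 0.59 (SE 0.20), both without overlap. Bach1, a repressor of Hmox1, was dim and lay at -0.17 (SE 0.090), also without overlap. Among the regulators groups did not overlap for 1 higher and 3 lower genes, beside 12.2% and 8.18% of all genes. Other thiol repair genes had a median of -0.014 with 11 of 25 above 0, and among them Sesn1 lay at -0.41 (SE 0.13), Glrx, the cytosolic glutaredoxin, at -0.56 (SE 0.27) and Msrb2, a methionine sulfoxide reductase, at 0.26 (SE 0.13). Glrx reached 7.53 on obese 42 against 8.46 to 8.94 on the other arrays.
Haem and iron genes had a median of -0.13, with 4 of 11 above 0. Hpx, the haem carrier haemopexin, was higher by 0.41 (SE 0.094), from a dim 4.53 to 4.65 in lean rats to 4.88 to 5.11 in obese rats. Cp, the ferroxidase ceruloplasmin, lay at -0.67 (SE 0.19), also without overlap. The metallothionein Mt2A lay at -0.20 (SE 0.14) with overlapping groups.

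**Figure D5:**
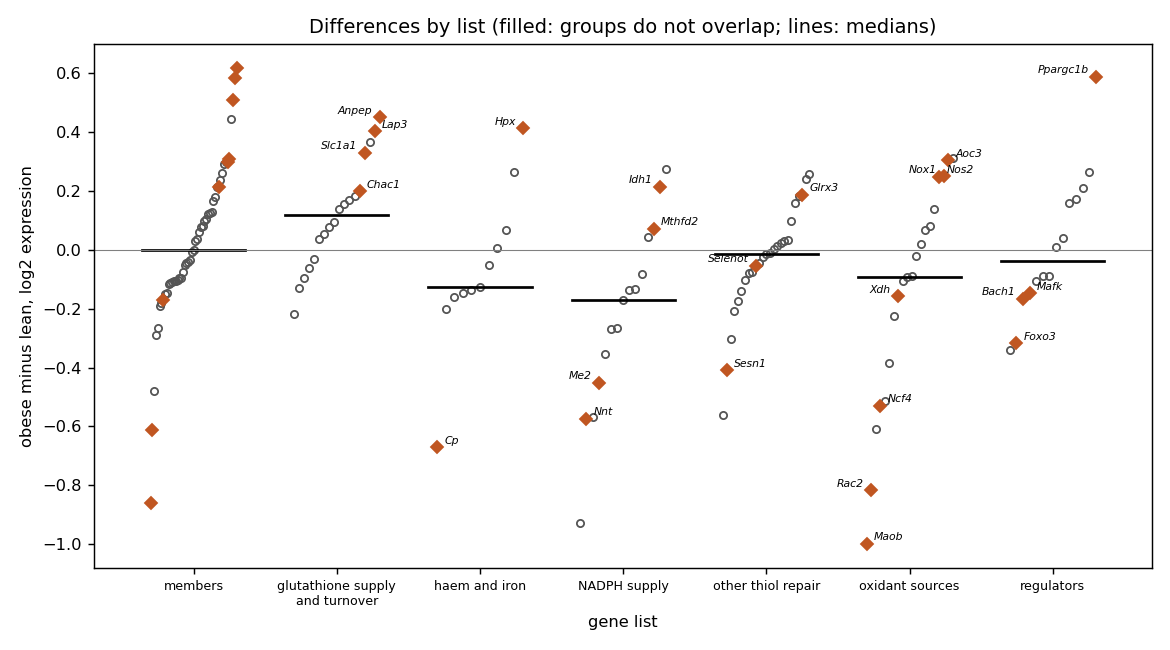
Difference between obese and lean rats in log2 expression for the 49 members and for the genes of 6 surrounding lists; each point is 1 gene, filled points are genes whose groups did not overlap, and lines are medians. The median is highest for glutathione supply and turnover (0.12) and lowest for NADPH supply (-0.17).

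Probe sets of 1 gene did not always give the same answer. Gclc, Gpx4, Gstt2, Srxn1 and Txnrd1 are the 5 members measured by more than 1. Gpx4 and Srxn1 separated the diets on their brightest probe set alone. For Gstt2 the brighter probe set lay at -0.18 (SE 0.10) and the dimmer one at 0.081 (SE 0.085). The other 44 members rest on 1 probe set each, among them Txnrd3, Gpx3, Nqo1, Gsta1 and Mgst2.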

How the data were processed

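Deposited values are log2 expression per probe set. Per the submitters' processing notes the authors used RMA and affy. The sources used here do not state versions, the chip definition or which arrays shared a normalization. Of 31099 probe sets, 57 controls were left out, and 20826 carried 1 symbol in the platform annotation, 436 several and 9780 none. Among several probe sets of a gene, the brightest on average stood for it. The test was limma's (version 3.58.1, under R 4.3.3; lmFit then eBayes, two-sided, no covariate), with Benjamini-Hochberg adjustment over 14217 genes and no filter on dim probe sets. The number of arrays limits the precision; the median SE was 0.11. The fit was tested on simulated data.

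The members and lists were chosen with earlier results of these data known. Values in every array are given for members without overlap, for those with an unadjusted p under 0.05 and for 18 fixed members, and up to 3 genes of each list by smallest p; others are stated as chosen later. Alternatives were other scalings, filters, probe set choices, priors, array weights, left-out arrays, 2 covariates and another threshold. Cell type marker lists other than macrophage, adipocyte and acinar showed median differences of -0.69 (B cell), -0.65 (T and NK cell), -0.15 (endothelial), 0.22 (erythroid), 0.034 (mesothelial) and -1.14 (smooth muscle). The smooth muscle markers averaged 9.79, 7.59 and 11.22 on lean 14, 18 and 19. On obese 29, 32 and 42 they averaged 8.95, 8.16 and 7.72, so that lean 18 lay below every obese rat. Python 3.11.15 and matplotlib 3.10.9 served for tables and plots.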

Additional observations from a re-analysis of the deposited data

How the results depend on the processing

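The count of members called by limma was 0 under all 17 alternatives. An adjusted p under 0.10 was tried on the main fit only, and the other alternatives used 0.05. The smallest adjusted p of any member under any of them was 0.0844, for Txnrd3 with array weights. At an unadjusted p under 0.05 the count was 8, and 6 to 12 when 1 rat was left out, while the share of all genes moved from 13.4% to between 8.03% and 15.7%. The count of members without overlap between the groups was 9, beside a share of 20.4% of all genes. It ranged from 11 to 19 when 1 rat was left out, beside 27.2% to 35.5% of all genes. With lean 14 and obese 42 both left out it was 27, beside 46.0% of all genes. Smaller groups overlap less by construction. The median member difference ranged from -0.026 to 0.097 when 1 rat was left out. The 10 members named for their separation or p kept their sign under every alternative run on them, with a gene's probe set of smallest p standing for it where every probe set was tested. For the 9 without overlap, leaving out arrays could not change the sign by construction, because all obese values lay on 1 side of all lean values. Other probe sets of Srxn1 (-0.098) and Gpx4 (-0.0085) turned, and Srxn1 and Gstm3 did not enter the fit over genes above the median level. Of the other 14 named members, 7 changed sign under at least 1 of them, all within differences that no test called. No paired analysis was possible because the lean and obese rats share no replicate number. The depth of an array is its signal: Gpx6 and Gsta3, below every array's lower quartile, allow no reading of direction.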
